A study of Arabidopsis thaliana with 24 samples.

Results

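Gene expression in the long-period mutant *rve8-1* and in the Columbia wild type, Col, was compared in early subjective night, at 16 h after subjective dawn (circadian time 16, CT16). The comparison takes the arrays hybridized with RNA harvested after 88 and 112 h in continuous light. These are 4 of the 24 AGRONOMICS1 arrays of the time course, 2 per genotype, and they are called *rve8-1*_88, *rve8-1*_112, Col_88 and Col_112. The *rve8-1* plants carry a T-DNA insertion in *RVE8* (AT3G09600), are represented by this single insertion line, and were otherwise treated as Col. All seedlings grew on agar medium with sucrose, received 7 days of 12 h light and 12 h dark, and were then released into continuous white light. Each array holds RNA of a pool of whole seedlings. The arrays of 88 and 112 h come from days 4 and 5 of free run, and the second day served as the replicate of the first. The p-values thus measure the spread between these days only, estimated from the day pairs of all harvest times in both genotypes. The question behind the comparison is which genes appear misexpressed in *rve8-1* when mutant and wild type are matched by the time of harvest.

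The plant circadian oscillator is built from transcription factors that repress or activate one another in turn over the day. The MYB-like proteins CCA1 and LHY accumulate around dawn and repress evening genes such as *TOC1*, and the pseudo-response regulators PRR9, PRR7, PRR5 and TOC1 then repress *CCA1* and *LHY* through the day and early night. RVE8 is a relative of CCA1 and LHY that activates evening genes, among them *PRR5*. Output rhythms driven by this oscillator include hypocotyl growth, photoperiodic flowering, starch turnover and cold responses.

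Values are log2 expression levels, 1 per probe set and array, and a difference of 1 is a 2-fold difference. Probe sets are called genes here, although 208 loci had several of them. A gene was tested when its level was above 4.5 on at least 4 of the 12 arrays of either genotype. This was met by 19473 of the 30237 probe sets on the array. Levels below 4.5 lie near the lower end of the scale, since the lower quartiles of the 4 arrays were between 3.79 and 3.92, and a difference that reaches below 4.5 may be understated. Over the tested genes the SD between the arrays of a genotype at CT16 had a median of 0.15 in *rve8-1* and of 0.10 in Col. *rve8-1*_88 stood farthest from the other arrays of the time course, with a mean Euclidean distance of 67.8 over the tested genes, against 53.0 to 66.2 for the other 23 arrays. The 4 leaf marker loci on the array were above 4.5 on all 4 CT16 arrays, and 5 of 7 root markers were tested, whereas *WOX5* and *PLT1*, which mark the root stem cell niche, did not pass the filter. The summed log2 levels of the leaf marker probe sets were 56.03 and 55.97 in *rve8-1* and 56.74 and 57.13 in Col, and those of the root markers were 37.52 and 35.82 in *rve8-1* and 36.65 and 36.15 in Col; their part in the results was not tested. In pools of whole seedlings, fewer cells of a type and less RNA per cell cannot be told apart.

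*RVE8* itself was checked first. Its level was 3.17 and 3.21 in *rve8-1* at 88 and 112 h, against 6.41 and 6.71 in Col, a difference of -3.37 ± 0.22 (SE, adjusted p = 7.49e-07). Both *rve8-1* arrays were below 4.5 and below both Col arrays. Lying below both Col arrays also held for 30.8% of all tested genes. *RVE8* passed the filter on low values only through Col, where it was high, and was not tested with a filter in both genotypes. Of the 2 loci numbered just before *RVE8*, AT3G09580 was 2.13-fold higher in *rve8-1*, with 7.92 and 8.13 in *rve8-1* and 6.96 and 6.90 in Col (adjusted p = 0.000811). AT3G09590 had 3.93 and 3.92 in *rve8-1* and 3.28 and 3.38 in Col, all below 4.5, and was not called (adjusted p = 0.173).

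At CT16, limma called 610 genes as different between *rve8-1* and Col (Benjamini-Hochberg adjusted p below 0.05), which is 3.13% of the genes tested. In *rve8-1*, 171 genes (0.878%) were higher and 439 (2.25%) were lower, so that 72.0% of the called genes were lower. This share was 62.1% when each array was centred on its median and 58.5% after quantile normalization. A difference of at least 2-fold was reached by 30 of the higher genes (0.154%) and 121 of the lower genes (0.621%). The called genes had a median absolute difference of 0.74, against 0.21 over all tested genes. Since genes were called by this same difference, the larger median follows from the calling. Their *rve8-1* and Col arrays did not overlap for any of the 610, but this also held for 22.1% (higher in *rve8-1*) and 30.8% (lower in *rve8-1*) of all tested genes. The count rests on few arrays: it was 191 without *rve8-1*_88, 746 without *rve8-1*_112, 194 without Col_88 and 61 without Col_112. A fit to the 4 CT16 arrays alone, which cannot borrow the spread of the other times, called only *RVE8* and *MRD1*, and the fit without the filter on low values called 255 genes.

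**Figure D1:**
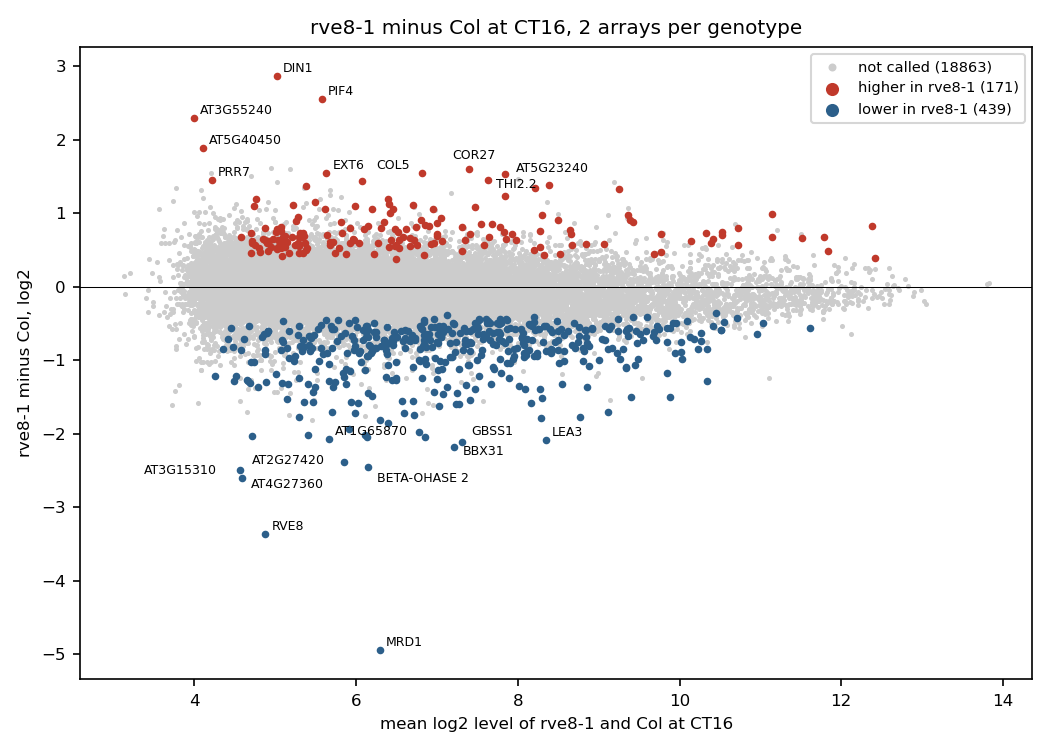
Difference between *rve8-1* and Col at CT16 (log2, vertical axis) against the mean log2 level of both genotypes at CT16 (horizontal axis), 1 point per tested gene. The 171 genes called higher in *rve8-1* are red and the 439 called lower are blue, and the named points are the 10 largest rises and the 10 largest falls, from *DIN1* at 2.87 to *MRD1* at -4.95.

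The first list of clock genes holds the morning genes *CCA1*, *LHY*, *PRR9*, *PRR7* and the LNK genes, together with *RVE8* and the other MYB-like relatives of *CCA1*. Not all of these peaked around dawn in Col: leaving out CT16, *RVE2* and AT5G52660 had their highest Col mean at CT12, and AT5G52660 stayed between 5.99 and 6.33 in Col throughout. Of the 16 genes, 6 fell in *rve8-1*, 1 rose and 9 were not called, with a median difference of -0.48 against -0.04 over all tested genes. The shares over all tested genes were 2.25% lower and 0.878% higher. Beside *RVE8*, the falls were *LHY*, *CCA1*, *RVE1*, *ASG4* (AT1G01520) and AT4G01280, all of the MYB-like family that also holds *RVE8*. *LHY* had 4.86 and 4.83 in *rve8-1* and 6.15 and 6.97 in Col (-1.71 ± 0.36, adjusted p = 0.0202). *CCA1* had 4.25 and 4.61 in *rve8-1* and 5.28 and 6.20 in Col (-1.31 ± 0.29, adjusted p = 0.0266). For both genes the Col arrays were higher at 112 h than at 88 h and both *rve8-1* arrays lay below them. The latter held for all 439 genes called lower and for 30.8% of all tested genes. *RVE1*, which promotes auxin synthesis and hypocotyl growth, had 5.25 and 5.58 in *rve8-1* and 6.59 and 7.15 in Col (-1.45 ± 0.21, adjusted p = 0.00208). *ASG4* had 3.74 and 3.66 in *rve8-1*, against 5.25 and 6.21 in Col (-2.03 ± 0.34, adjusted p = 0.00523), with the *rve8-1* levels below 4.5. AT4G01280 showed the smallest of these falls, with 6.06 and 5.88 in *rve8-1* and 6.50 and 6.44 in Col (-0.50 ± 0.12, adjusted p = 0.0333).

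*PRR7*, a repressor of *CCA1* and *LHY*, was the morning gene that rose. Its levels were 4.77 and 5.11 in *rve8-1* and 3.43 and 3.54 in Col, a 2.74-fold difference (1.45 ± 0.20, adjusted p = 0.00135), with Col below 4.5. *PRR9*, the earliest of the series in the day, was below 4.5 on all 4 arrays, at 3.25 and 3.78 in *rve8-1* and 3.59 and 4.19 in Col, and was not called (adjusted p = 0.476). The LNK genes encode partners of the RVE8 protein in transcriptional activation, and none of the 4 was called. Their Col levels differed between the days: *LNK3* had 4.75 and 4.82 in *rve8-1*, between the 4.55 and 6.05 of Col_88 and Col_112. *LNK2*, at 5.19 and 5.11 in *rve8-1* and 4.96 and 6.05 in Col, and *LNK4*, at 5.17 and 5.54 in *rve8-1* and 4.72 and 6.05 in Col, overlapped in the same way. *LNK1* had 5.38 and 5.46 in *rve8-1* and 4.42 and 5.26 in Col (0.58 ± 0.23, adjusted p = 0.167). *RVE4* (-0.44 ± 0.14) and AT5G52660 (-0.46 ± 0.14), close relatives of *RVE8*, had adjusted p values of 0.101 and 0.0892. Their relatives *RVE2* (-0.59, adjusted p = 0.129) and *RVE7* (0.48, adjusted p = 0.298) were not called either.

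The calls of *RVE8* and *PRR7* held with each CT16 array left out. Without Col_112 the adjusted p was 0.0581 for *RVE1*, 0.115 for *ASG4*, 0.262 for *LHY* and 0.305 for *CCA1*. *LHY* was also lost without *rve8-1*_88 (0.106) and *rve8-1*_112 (0.0538), and *CCA1* without *rve8-1*_88 (0.182). Without the filter on low values, *CCA1* (0.0569) and AT4G01280 (0.0778) were lost and 4 falls remained in the list. AT4G01280 was lost with any of the 4 arrays left out (0.0695 without *rve8-1*_88, 0.109 without *rve8-1*_112, 0.152 without Col_88 and 0.189 without Col_112).

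Of the 12 evening clock genes, 5 rose in *rve8-1*, none fell and 7 were not called, with a median difference of 0.34. Over all tested genes 0.878% rose and 2.25% fell, with a median difference of -0.04. An unadjusted limma p under 0.05 was found for 7 of the 12, and for 4209 of all 19473 tested genes. The rises were *TOC1*, *PRR5* and *PRR3* of the pseudo-response regulators, and *GI* and *FKF1*, whose proteins act together in the blue-light control of flowering. *GI* had 5.32 and 5.41 in *rve8-1* and 4.29 and 4.06 in Col (1.19 ± 0.18, adjusted p = 0.00277). *PRR5* had 6.06 and 6.07 in *rve8-1* and 4.96 and 4.85 in Col (1.15 ± 0.18, adjusted p = 0.00320). In both genes the arrays of a genotype lay closer to each other than to those of the other genotype. *FKF1* was 2.08-fold higher, at 6.06 and 6.23 in *rve8-1* and 5.04 and 5.14 in Col (adjusted p = 0.00394). *PRR3* was 2.07-fold higher, at 6.79 and 6.64 in *rve8-1* and 5.65 and 5.68 in Col (adjusted p = 0.0101). *TOC1* showed the smallest of the 5 rises, with 7.37 and 7.25 in *rve8-1* and 6.55 and 6.43 in Col (0.82 ± 0.19, adjusted p = 0.0346).

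The evening complex of ELF3, ELF4 and LUX represses growth and morning genes at night, and its genes were not called. *LUX* had 6.50 and 6.61 in *rve8-1* and 6.08 and 6.24 in Col (0.40 ± 0.17, adjusted p = 0.197), *ELF3* differed by 0.28 ± 0.17 and *ELF4* by 0.29 ± 0.26. *BOA*, a close relative of *LUX*, had the lowest value of the list, with 4.95 and 4.87 in *rve8-1* and 5.57 and 5.27 in Col (-0.51 ± 0.23, adjusted p = 0.212). The F-box genes *ZTL* (-0.13 ± 0.15) and *LKP2* (0.06 ± 0.18) and *CHE* (-0.01 ± 0.16), a repressor of *CCA1*, differed by less than their standard errors. Of the 5 rises, *FKF1* held with each CT16 array left out. Without Col_112 the adjusted p was 0.0645 for *GI*, 0.0645 for *PRR5*, 0.104 for *PRR3* and 0.263 for *TOC1*. *PRR3* was also lost without *rve8-1*_88 (0.0866) and Col_88 (0.0695), and *TOC1* without *rve8-1*_88 (0.188), *rve8-1*_112 (0.0591) and Col_88 (0.107). Without the filter on low values *TOC1* was lost (0.0734).

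**Figure D2:**
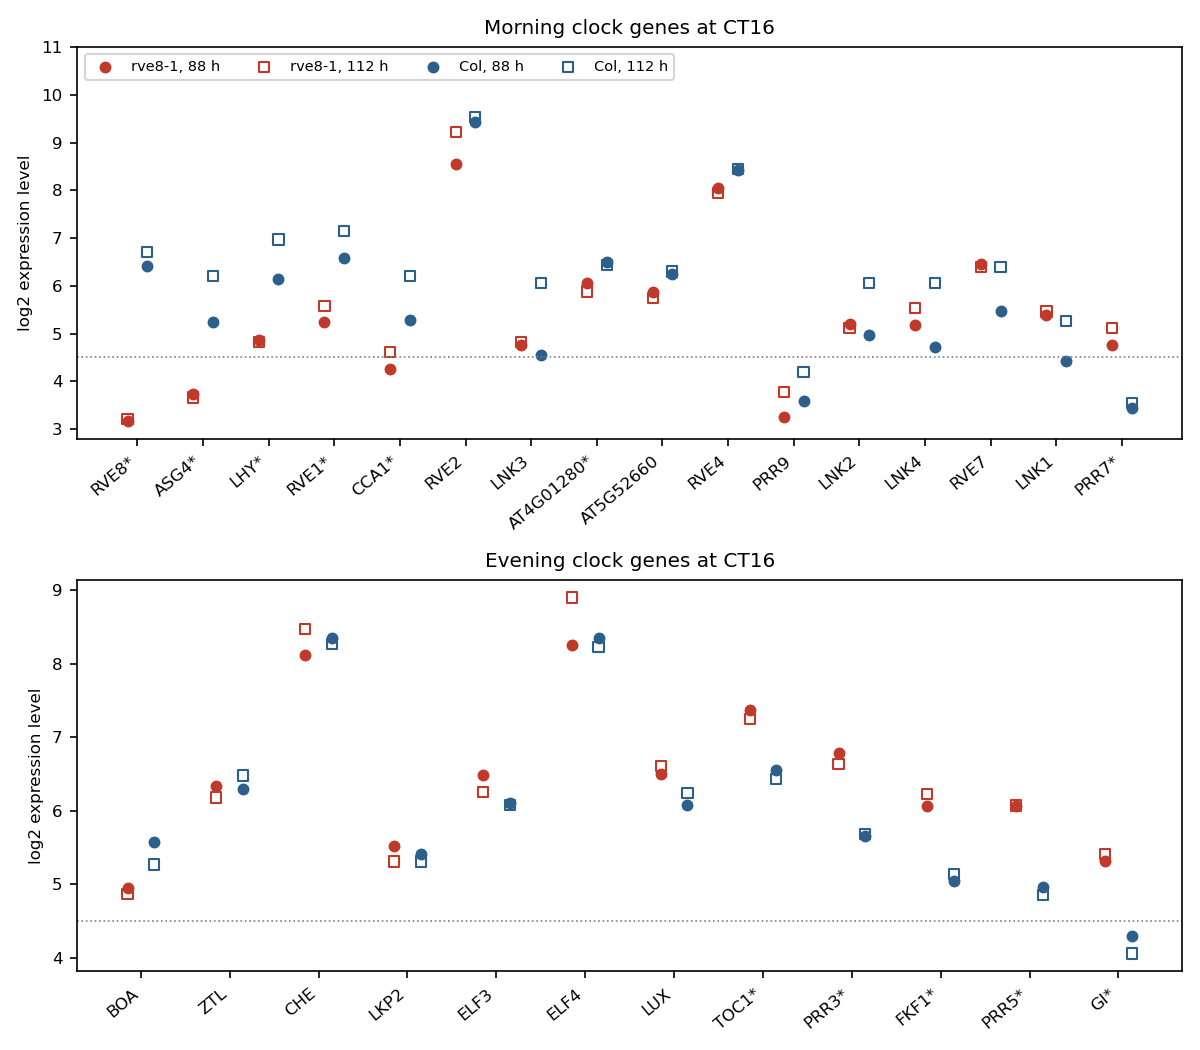
Log2 levels (vertical axis) of 16 morning and 12 evening clock genes on the 4 arrays of CT16, *rve8-1* in red to the left of Col in blue, with 88 h as circles and 112 h as squares. An asterisk marks an adjusted p under 0.05, and the dotted line is the level of 4.5; 6 morning genes lie lower in *rve8-1* past the threshold, and *PRR7* and 5 evening genes lie higher.

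Growth regulators of the PIF and B-box families moved in both directions. Of 16 tested genes of growth, PIF and auxin, 4 rose and 3 fell (median difference 0.35). For this and the other lists, the shares over all tested genes were 0.878% higher and 2.25% lower, with a median difference of -0.04. *PIF4*, a transcription factor that promotes hypocotyl elongation, had 6.63 and 7.06 in *rve8-1* and 4.38 and 4.22 in Col, a 5.85-fold difference (2.55 ± 0.29, adjusted p = 0.000305). Its relative *PIF5* had 6.36 and 6.61 in *rve8-1* and 5.54 and 5.87 in Col (0.78 ± 0.20, adjusted p = 0.0442). The auxin-inducible *IAA29*, a target of the PIF proteins, had 5.02 and 5.56 in *rve8-1* and 4.30 and 4.08 in Col (1.10 ± 0.28, adjusted p = 0.0421). *PIF1*, an inhibitor of seed germination in the dark and the remaining rise, differed by 0.69 ± 0.17 (adjusted p = 0.0416) and is named after its value was seen. *PIF3* (0.18 ± 0.15) and *PIF7* (-0.22 ± 0.18) were not called.

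The falls of this list were the B-box genes *BBX18*, *BBX25* and *BBX19*, which act in seedling light responses. *BBX18* had 6.76 and 6.79 in *rve8-1* and 7.96 and 8.39 in Col (-1.40 ± 0.17, adjusted p = 0.000462). *BBX25* had 7.38 and 7.31 in *rve8-1* and 8.49 and 8.90 in Col (-1.35 ± 0.18, adjusted p = 0.000872). *BBX19* had 5.20 and 5.50 in *rve8-1* and 6.29 and 6.72 in Col (-1.15 ± 0.20, adjusted p = 0.00548). All 3 were lower on both *rve8-1* arrays than on either Col array, as were all 439 lower genes and 30.8% of all tested genes. The calls of *PIF4*, *BBX18* and *BBX25* held with each CT16 array left out. *BBX19* was lost without *rve8-1*_88 (adjusted p = 0.0646) and Col_112 (0.118). *PIF5* and *IAA29* were lost with any of the 4 left out, at 0.111 and 0.0658 without *rve8-1*_88, 0.128 and 0.147 without *rve8-1*_112, 0.234 and 0.118 without Col_88, and 0.135 and 0.293 without Col_112. Both were also lost after quantile normalization. The 4 rises of the list became 1 without *rve8-1*_88, 2 without *rve8-1*_112, 1 without Col_88, 1 without Col_112 and 1 without the filter on low values.

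Of 12 tested genes of flowering and photoperiod, 4 fell and 1 rose (median difference -0.22). *COL2*, a relative of *CONSTANS*, had 5.13 and 5.06 in *rve8-1* and 6.59 and 7.64 in Col (-2.02 ± 0.27, adjusted p = 0.000920). *COL1* had 6.27 and 6.47 in *rve8-1* and 7.41 and 7.84 in Col (-1.26 ± 0.22, adjusted p = 0.00734). *COL5* went the other way, with 7.33 and 7.83 in *rve8-1* and 5.83 and 6.25 in Col, 2.91-fold higher (1.54 ± 0.22, adjusted p = 0.00148). *FT*, which encodes the mobile floral signal, had 4.08 and 3.78 in *rve8-1* and 4.89 and 4.68 in Col (-0.85 ± 0.21, adjusted p = 0.0375). *CDF2*, a repressor of *CONSTANS* and *FT*, had 5.02 and 4.78 in *rve8-1* and 5.59 and 5.94 in Col (-0.87 ± 0.21, adjusted p = 0.0365). *CO* (*CONSTANS*) itself differed by -0.35 ± 0.23 and was not called. The calls of *COL2* and *COL5* held with each CT16 array left out. *COL1* was lost without *rve8-1*_88 (0.0695) and Col_112 (0.137). *FT* and *CDF2* were lost with any of the 4 left out, at 0.0838 and 0.104 without *rve8-1*_88, 0.120 and 0.110 without *rve8-1*_112, 0.185 and 0.0702 without Col_88, and 0.161 and 0.312 without Col_112. *FT* was also lost with median centring, with a trended and robust prior and without the filter on low values (0.0790), and *CDF2* was lost without that filter (0.0773), which left 2 falls in the list.

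Cold-responsive genes that passed the test were all higher in *rve8-1*: 3 of 11 tested rose and none fell (median difference 0.52). *COR27*, a cold-regulated gene that also feeds back on the clock, had 8.11 and 8.27 in *rve8-1* and 6.73 and 6.45 in Col (1.60 ± 0.40, adjusted p = 0.0427). *RD29A*, a dehydration and cold-stress gene, had 7.46 and 7.23 in *rve8-1* and 6.70 and 6.58 in Col (0.71 ± 0.16, adjusted p = 0.0269). *COR413-PM1*, a membrane protein gene, had 11.01 on both arrays of *rve8-1* and 10.51 and 10.37 in Col (0.57 ± 0.13, adjusted p = 0.0290). *CBF3*, an activator of cold-responsive genes, had 5.75 and 6.02 in *rve8-1* and 4.53 and 5.07 in Col but was not called (adjusted p = 0.137). *RD29A* was the one rise called without *rve8-1*_112 (0.0323), and no cold gene was called without *rve8-1*_88, Col_88 or Col_112. In those fits *COR27* had adjusted p values of 0.158, 0.121 and 0.291, *RD29A* 0.194, 0.0808 and 0.242, and *COR413-PM1* 0.137, 0.0753 and 0.263; without *rve8-1*_112, *COR27* had 0.101 and *COR413-PM1* 0.0622. Without the filter on low values no cold gene was called either, with 0.0848 for *COR27*, 0.0607 for *RD29A* and 0.0689 for *COR413-PM1*.

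Of 22 genes of starch metabolism, 4, all for degrading enzymes, rose and 1, for a synthetic enzyme, fell (median difference 0.17; 13 had an unadjusted p under 0.05). *AMY3*, a chloroplast alpha-amylase, had 6.95 and 7.04 in *rve8-1* and 5.99 and 5.61 in Col (1.19 ± 0.12, adjusted p = 8.49e-05). *GWD1*, which phosphorylates starch at the start of its breakdown, had 6.95 and 6.46 in *rve8-1* and 5.97 and 5.85 in Col (0.80 ± 0.17, adjusted p = 0.0197). The debranching enzyme gene *ISA3* (0.81 ± 0.20, adjusted p = 0.0406) and the cytosolic phosphorylase gene *PHS2* (0.75 ± 0.17, adjusted p = 0.0307) were 1.75-fold and 1.68-fold higher. Other degrading enzymes were not called, among them *BAM1* (-0.41 ± 0.17) and *BAM3* (-0.47 ± 0.19), whose values lay in the other direction. *BAM5*, a further beta-amylase gene, had 5.82 and 3.11 in *rve8-1* and 6.15 and 5.67 in Col and was not called (-1.45 ± 1.03, adjusted p = 0.430). Its *rve8-1* arrays lay far apart, and only *rve8-1*_112 was below 4.5. *GBSS1*, the granule-bound synthase that makes amylose, had 6.50 and 6.02 in *rve8-1* and 8.27 and 8.47 in Col, 4.32-fold lower (-2.11 ± 0.33, adjusted p = 0.00299). *AMY3* held with each CT16 array left out, and *GBSS1* was lost without Col_112 (0.0581). Without *rve8-1*_88, Col_88 and Col_112 the adjusted p was 0.194, 0.0702 and 0.194 for *GWD1* and 0.244, 0.0608 and 0.331 for *ISA3*; for *PHS2* it was 0.127 without *rve8-1*_88, 0.0758 without *rve8-1*_112 and 0.311 without Col_112. Without the filter on low values *ISA3* and *PHS2* were lost and 2 rises remained.

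Genes of the phenylpropanoid and flavonoid pathway were lower where they were called: 4 of 13 fell and none rose (median difference -0.64; 10 had an unadjusted p under 0.05). *PAP1*, a MYB activator of anthocyanin synthesis, had 6.47 and 5.20 in *rve8-1* and 7.74 and 7.43 in Col (-1.75 ± 0.35, adjusted p = 0.0133), and the *rve8-1* arrays differed by more than the Col arrays. *MYB111*, an activator of flavonol synthesis, had 5.44 and 5.43 in *rve8-1* and 6.26 and 6.41 in Col (-0.90 ± 0.19, adjusted p = 0.0213). *FLS1*, flavonol synthase, had 8.20 and 7.98 in *rve8-1* and 8.80 and 8.88 in Col (-0.75 ± 0.15, adjusted p = 0.0122). *C4H*, an early enzyme of the pathway, had 8.48 and 8.52 in *rve8-1* and 9.24 and 9.14 in Col (-0.69 ± 0.14, adjusted p = 0.0197). Of the 4 calls, all were lost without Col_88 (0.0955 for *PAP1*, 0.0714 for *MYB111*, 0.0602 for *FLS1* and 0.117 for *C4H*) and without Col_112 (0.0974, 0.209, 0.144 and 0.124 in the same order). Without *rve8-1*_112 *PAP1* (0.0712), *MYB111* (0.0557) and *FLS1* (0.0580) were lost, and without *rve8-1*_88 *MYB111* (0.109) and *C4H* (0.115) were lost. *FLS1* and *C4H* were also lost after quantile normalization.

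Dark-inducible genes included the largest rise of the comparison. *DIN1* had 6.15 and 6.74 in *rve8-1* and 3.50 and 3.65 in Col, which lay below 4.5 (2.87 ± 0.45, adjusted p = 0.00311), and was 7.30-fold higher. *DIN10* had 6.32 and 6.73 in *rve8-1* and 5.39 and 5.47 in Col (1.10 ± 0.22, adjusted p = 0.0160). These were the calls among 10 tested genes of nitrogen assimilation and dark induction (median difference 0.20). *ASN1*, asparagine synthetase, had 4.22 and 5.28 in *rve8-1* and 3.72 and 3.95 in Col and was not called (adjusted p = 0.177). *DIN1* held with each CT16 array left out, and *DIN10* was lost without *rve8-1*_112 (0.0719), Col_88 (0.0894) and Col_112 (0.125).

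Photosynthesis genes that were called went in both directions. Of 15 tested light-harvesting genes, *LHCB1.4* (0.66 ± 0.13, adjusted p = 0.0121) and *LHCA1* (0.39 ± 0.10, adjusted p = 0.0490) rose, *LHCB4.3* fell (-0.96 ± 0.20, adjusted p = 0.0163) and 12 were not called, with a median difference of 0.04 (6 had an unadjusted p under 0.05). Among 14 genes of chlorophyll synthesis *CHLD*, a subunit of magnesium chelatase, was called (0.63 ± 0.16, adjusted p = 0.0496). *HEMA1*, the first committed enzyme, had 8.01 and 8.72 in *rve8-1* and 9.09 and 9.39 in Col (-0.88 ± 0.24, adjusted p = 0.0552). *GLK2*, an activator of photosynthesis genes and 1 of the leaf markers, had 7.35 and 7.46 in *rve8-1* and 7.98 and 8.26 in Col (-0.71 ± 0.13, adjusted p = 0.00703). The other leaf markers *GLK1*, *RBCS1A* and *RCA* were not called. *LHCA1*, *LHCB4.3* and *CHLD* were lost with any of the 4 arrays left out (adjusted p of 0.0646, 0.0661 and 0.286 without *rve8-1*_88, 0.160, 0.0562 and 0.0508 without *rve8-1*_112, 0.240, 0.0714 and 0.187 without Col_88, and 0.161, 0.158 and 0.249 without Col_112). *LHCB1.4* was called only without *rve8-1*_88 (0.0335), with 0.0577 without *rve8-1*_112, 0.0914 without Col_88 and 0.0897 without Col_112, and *GLK2* was lost without *rve8-1*_88 (0.0658) and Col_112 (0.139). *LHCA1* was also lost with median centring, and *LHCA1* and *CHLD* were lost with the day of free run as a block and without the filter on low values.

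The remaining lists held few calls. Of 13 genes of glucosinolate synthesis and sulfate assimilation, *APR2*, a key enzyme of sulfate reduction, fell (-0.90 ± 0.14, adjusted p = 0.00312; median of the list 0.03). It had 9.39 and 9.61 in *rve8-1* and 10.31 and 10.50 in Col, and was lost without Col_112 (0.0761). Of 12 tested jasmonate and wounding genes, *JAZ9*, a repressor of jasmonate responses, fell (-0.78 ± 0.15, adjusted p = 0.00961; median of the list -0.17), and was lost without *rve8-1*_88 (0.0806) and Col_112 (0.161). None of 10 photoreceptor genes was called by limma, although 1 had an unadjusted p under 0.05, and their differences lay between -0.06 and 0.36. Likewise none of 4 tested heat shock genes and none of 5 tested root markers was called, and none of these had an unadjusted p under 0.05.

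**Figure D3:**
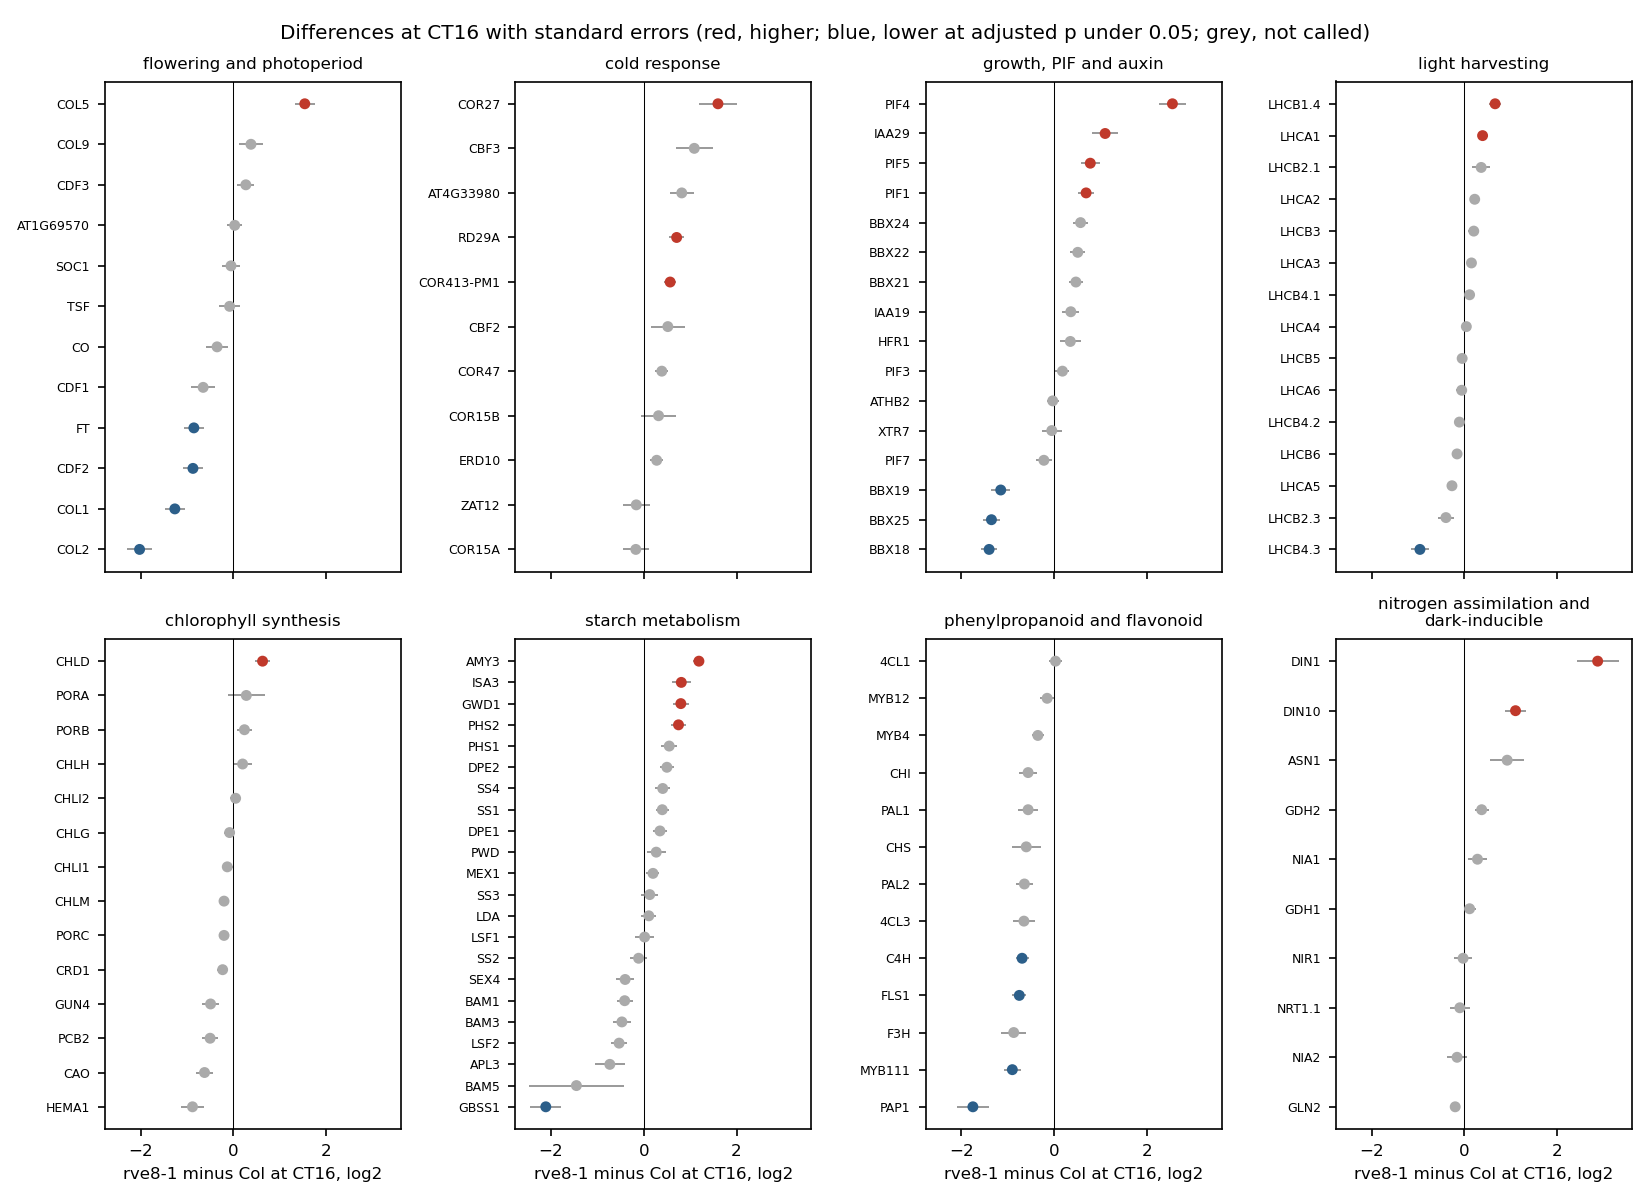
Differences between *rve8-1* and Col at CT16 (log2, horizontal axis) with standard errors for the tested genes of 8 output lists, ordered by their difference within each list. Red and blue points passed an adjusted p of 0.05, as *PIF4* (2.55), *DIN1* (2.87), *COL2* (-2.02) and *GBSS1* (-2.11) did, and grey points did not.

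By size of the difference, *MRD1* (AT1G53480) led the falls, with 3.74 and 3.89 in *rve8-1* and 8.75 and 8.77 in Col (-4.95 ± 0.21, adjusted p = 2.75e-09). It was 30.8-fold lower. *MRD1* was below 4.5 on every *rve8-1* array of the time course, so that it passed the filter on low values only through Col. It was not tested with a filter in both genotypes. *RVE8*, AT4G27360 (-2.60 ± 0.31), the pseudogene AT3G15310 (-2.50 ± 0.48) and *BETA-OHASE 2* (AT5G52570), a beta-carotene hydroxylase of xanthophyll synthesis, followed. *BETA-OHASE 2* had 4.79 and 5.05 in *rve8-1* and 7.00 and 7.75 in Col, 5.51-fold lower (-2.46 ± 0.29, adjusted p = 0.000431). The other falls among the largest 10 were AT2G27420 (-2.38 ± 0.29), the B-box gene *BBX31* (-2.18 ± 0.26), *GBSS1*, *LEA3* of the late embryogenesis abundant proteins (-2.09 ± 0.39) and AT1G65870 (-2.08 ± 0.25). *BBX31* had 6.04 and 6.19 in *rve8-1* and 8.16 and 8.44 in Col. AT3G15310 was lost without *rve8-1*_88 (0.0978) and Col_112 (0.164), as was *LEA3* (0.113 and 0.152), and the others apart from *GBSS1* held with each CT16 array left out.

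After *DIN1* and *PIF4*, the largest rises were AT3G55240 (2.29 ± 0.41, adjusted p = 0.00748), AT5G40450 (1.89 ± 0.44, adjusted p = 0.0299) and *COR27*. AT3G55240 had 5.26 and 5.02 in *rve8-1* and 3.05 and 2.65 in Col, where both Col levels were below 4.5. AT5G40450 had 5.44 and 4.67 in *rve8-1* and 3.03 and 3.30 in Col. It was below 4.5 on every Col array of the time course, so that it passed the filter on low values only through *rve8-1*, where it was high, and it was not tested with a filter in both genotypes and was lost without one (0.0634). *EXT6*, an extensin of the cell wall (1.54 ± 0.38), *COL5*, AT5G23240, annotated as a DNA J protein (1.53 ± 0.38), *THI2.2*, a thionin (1.45 ± 0.28), and *PRR7* completed the 10. *THI2.2* had 7.95 and 8.75 in *rve8-1* and 6.94 and 6.86 in Col (adjusted p = 0.0125). Of these 10, *DIN1*, *PIF4*, *COL5* and *PRR7* held with each CT16 array left out. AT3G55240 was lost without *rve8-1*_88 (0.0658) and Col_112 (0.118), AT5G40450 without *rve8-1*_88 (0.224), Col_88 (0.145), Col_112 (0.161) and after quantile normalization, and *THI2.2* without *rve8-1*_112 (0.0709), Col_88 (0.0667) and Col_112 (0.137). *EXT6* and AT5G23240 were lost with any of the 4 left out, at 0.242 and 0.145 without *rve8-1*_88, 0.0551 and 0.0988 without *rve8-1*_112, 0.128 and 0.102 without Col_88, and 0.276 and 0.293 without Col_112. Both were also lost without the filter on low values.

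The called genes were then placed by the time of their highest Col mean, using the 10 Col arrays of the other times. These arrays entered the shared estimate of the spread, but not the difference at CT16. Of the 171 genes higher in *rve8-1*, 111 (64.9%) had their highest Col mean at CT8 and 27 (15.8%) at CT4. Of the 439 genes lower in *rve8-1*, 198 (45.1%) had it at CT20 and 174 (39.6%) at CT0, and only 3 (0.683%) at CT8. Over all tested genes the 5 times held between 16.5% and 23.7%. Higher genes were thus mostly highest by day in Col, as *DIN1* and *PRR7* at CT4 and *GI*, *PRR5* and *TOC1* at CT8. Of the 5 times, lower genes were mostly highest in Col at CT20, as *RVE1* and *GBSS1*, or CT0, as *CCA1* and *COL2*. With CT16 left out, a gene highest in Col at CT16 was placed at another time. *LEA3* and *MYB111*, placed at CT20, had Col means of 9.39 and 6.34 at CT16 and 8.81 and 5.86 at CT20. Lower genes that peak in early night are therefore not told apart from those that peak around dawn. The range of the Col means over these 5 times had a median of 0.73 for the higher genes and 0.78 for the lower genes, against 0.42 for all tested genes.

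The differences at the other times of day are given as a description, from arrays that entered the CT16 comparison only through the shared spread. The genes higher at CT16 had median differences of -0.09, -0.21, -0.24, 0.25, 0.68 and 0.26 from CT0 to CT20, and the genes lower at CT16 had medians of 0.03, 0.41, 0.34, -0.33, -0.77 and -0.35. Both groups thus had medians of the opposite sign at CT4 and CT8. At CT12, 91.2% of the genes higher at CT16 had a positive difference and 85.4% of those lower at CT16 a negative one, and at CT20 these shares were 91.2% and 94.3%. Over all tested genes, 48.1% were positive and 51.9% negative at CT12, and 50.8% were positive and 49.2% negative at CT20.

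**Figure D4:**
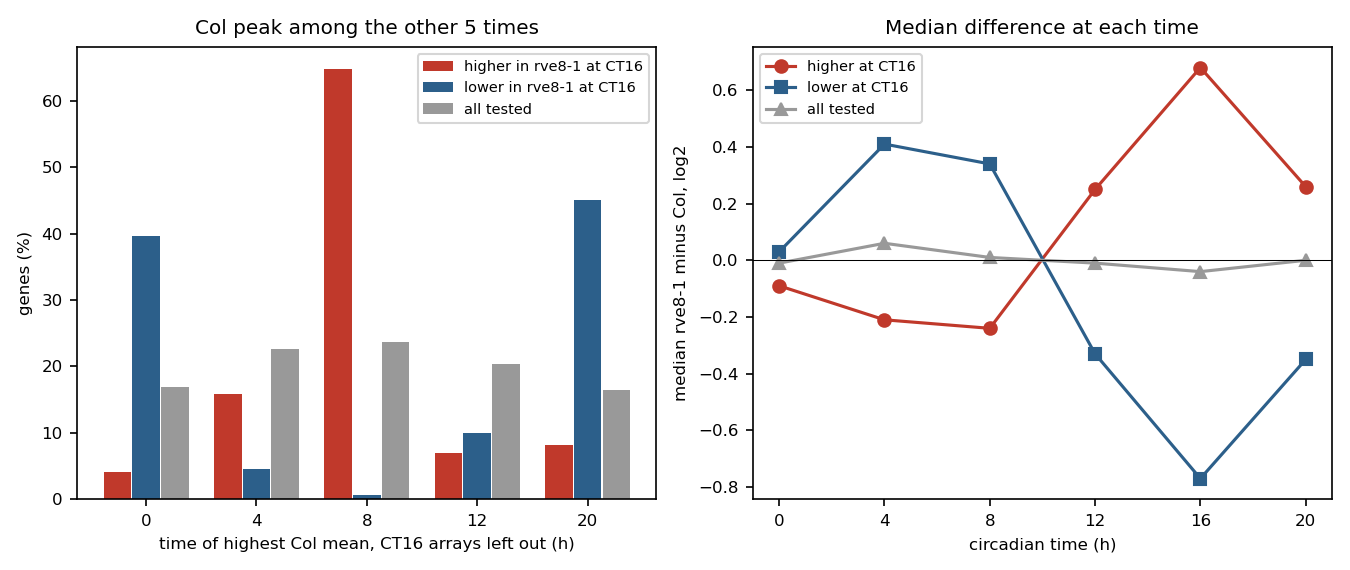
Left, share of genes (%, vertical axis) whose highest Col mean fell at each circadian time, with the CT16 arrays left out, for genes higher in *rve8-1* at CT16 (red), lower (blue) and all tested (grey). Right, median difference between *rve8-1* and Col (log2) of the same gene groups at each circadian time; the higher genes peak at 0.68 and the lower genes reach -0.77 at CT16, where they were called, and both change sign between CT8 and CT12.

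Single genes show the courses behind these medians. *PIF4* was highest in Col at 76 h (8.01) and 100 h (8.01), and in *rve8-1* at 84 h (7.89) and 108 h (8.04). At 88 and 112 h the Col values, 4.38 and 4.22, were the lowest of the Col course, whereas *rve8-1* reached its lowest values at 92 h (4.36) and, among the later arrays, at 116 h (5.28). *DIN1* likewise was lowest in Col at 88 h (3.50) and 112 h (3.65), with 6.15 and 6.74 in *rve8-1* at these hours. *COL2* was lowest in *rve8-1* at 88 h (5.13) and 112 h (5.06), while in Col its low points were at 84 h (5.09) and 108 h (5.37) and its level was rising by 88 and 112 h. *BETA-OHASE 2* followed the same order, with low points at 88 h (4.79) and 112 h (5.05) in *rve8-1* and at 80 h (4.88) and 104 h (5.30) in Col. *RVE8* stayed between 3.17 and 4.71 in *rve8-1* and between 4.28 and 7.37 in Col. *MRD1* stayed between 2.75 and 4.29 in *rve8-1* and between 8.40 and 8.78 in Col, with no time of day at which the genotypes came near each other.

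**Figure D5:**
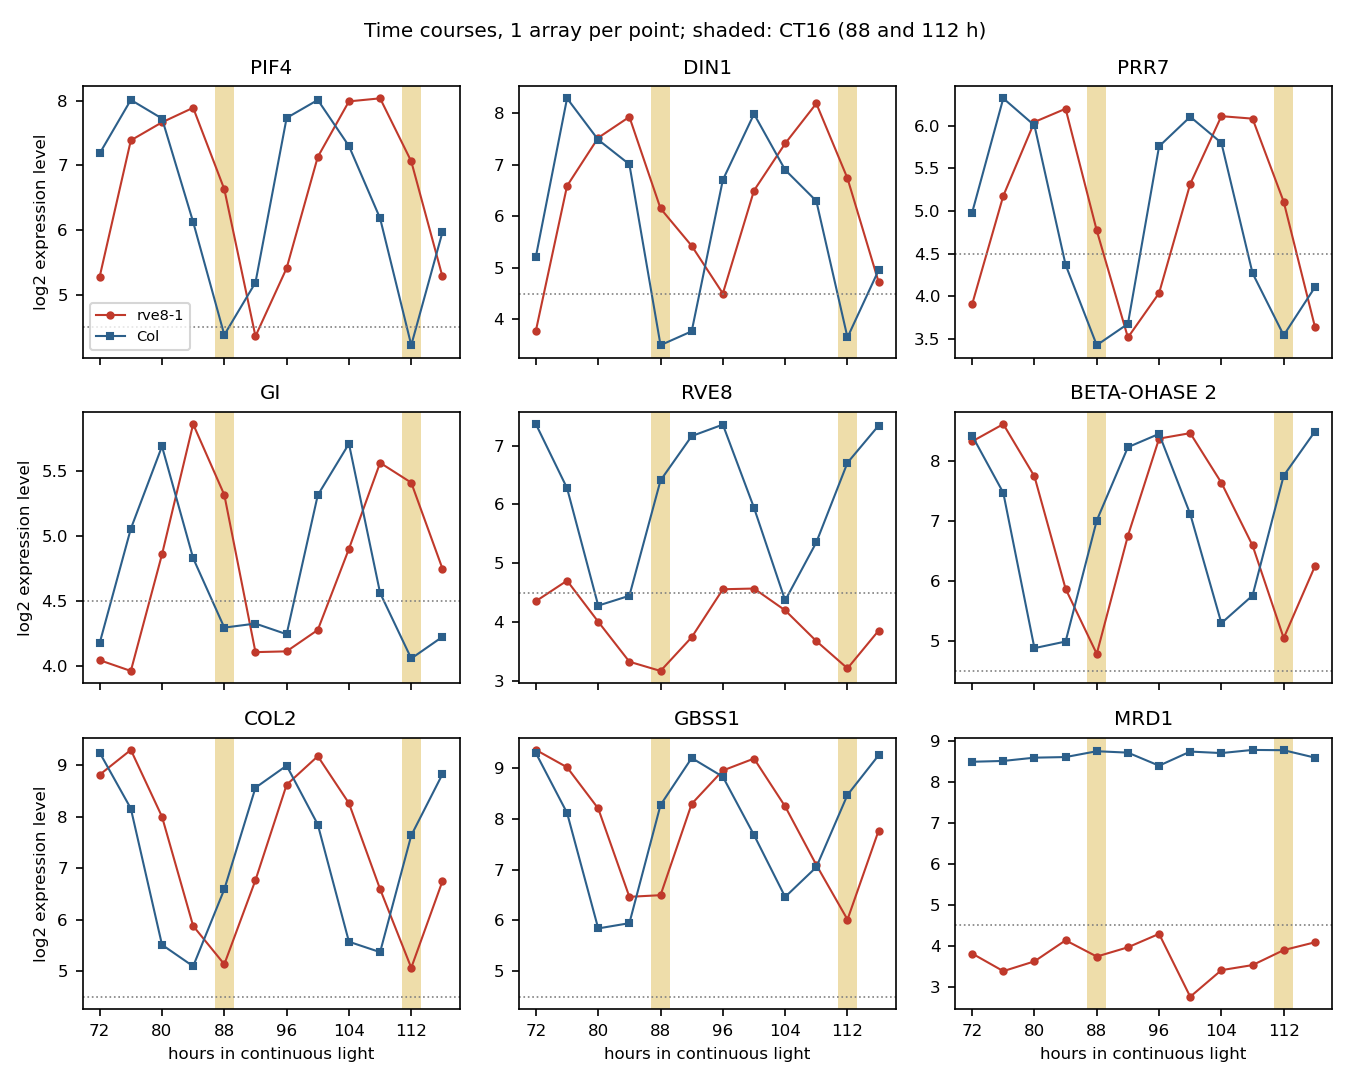
Log2 levels (vertical axis) of 9 genes against hours in continuous light, *rve8-1* in red and Col in blue, 1 array per point, with the CT16 harvests at 88 and 112 h shaded and the level of 4.5 dotted. *PIF4*, *DIN1*, *PRR7* and *GI* are past their peak in Col and still high in *rve8-1* at the shaded times, *BETA-OHASE 2*, *COL2* and *GBSS1* are low in *rve8-1* and already rising in Col, and *MRD1* differs at every harvest.

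Whether the difference at CT16 was itself unlike that of the neighbouring harvests was tested with interaction terms in the same model. Between CT16 and CT12 the difference changed for 32 genes (0.164%), of which 28 (0.144%) moved towards lower values in *rve8-1* and 4 (0.0205%) towards higher values. *BETA-OHASE 2* differed by 0.86 at CT12 and by -2.46 at CT16, a change of -3.32 ± 0.41 (adjusted p = 0.00240). *COL2* showed 1.00 at CT12 and -2.02 at CT16 (-3.02 ± 0.38, adjusted p = 0.00240), *BBX16* 1.11 and -1.78 (-2.90 ± 0.40, adjusted p = 0.00490), and *CCA1* 0.88 and -1.31 (-2.18 ± 0.41, adjusted p = 0.0492). *LNK2* (-2.36 ± 0.41, adjusted p = 0.0299) and *LNK3* (-2.89 ± 0.52, adjusted p = 0.0368), which were not called at CT16, were higher in *rve8-1* at CT12 by 2.01 and 2.38. The histone demethylase gene *JMJD5* ran the other way, with -0.73 at CT12 and 1.24 at CT16 (1.96 ± 0.29, adjusted p = 0.0107). This count fell to 7 without *rve8-1*_88, 8 without Col_112, 9 without Col_84 and 7 without *rve8-1*_108.

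Between CT16 and CT20 the difference changed for 12 genes (0.0616%), all with higher values at CT16 and none (0.00%) with lower values. An unadjusted limma p under 0.05 was found for 970 of the 19473 tested genes, in both directions together. That is close to the share this threshold lets through when no gene differs. *PIF4* differed by 2.55 at CT16 and -0.76 at CT20 (3.30 ± 0.41, adjusted p = 0.00337), *COL5* by 1.54 and -0.99 (2.53 ± 0.31, adjusted p = 0.00337), and *PIF5* by 0.78 and -1.26 (2.04 ± 0.28, adjusted p = 0.00833). The light-harvesting genes *LHCB1.4* (1.72 ± 0.18, adjusted p = 0.00140) and *LHCA1* (0.99 ± 0.14, adjusted p = 0.0120) were also among them, as was *PRR7* (1.76 ± 0.29, adjusted p = 0.0269). For *TOC1* (-0.15) and *PRR5* (0.26) the change between CT16 and CT20 was not called. The count of 12 fell to 4 without *rve8-1*_112, Col_88, *rve8-1*_92 or Col_116, and to 7 without *rve8-1*_116.

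Finally, *rve8-1* and Col were set against each other 4 h apart, as the study did to compensate for a difference in phase. These comparisons share arrays with that at CT16, and each is given by its own values. With *rve8-1* at CT20 against Col at CT16, 3 genes were called (0.0154%), all lower in *rve8-1* and none higher (0.00%): *MRD1* (-4.74, adjusted p = 5.26e-09), AT5G11330 (-1.74, adjusted p = 7.47e-06) and *RVE8* (-2.76, adjusted p = 8.90e-06). An unadjusted p under 0.05 was found for 2600 genes. With *rve8-1* at CT16 against Col at CT12, 5 genes were called (0.0257%), 1 higher (0.00514%) and 4 lower (0.0205%), with 3431 at an unadjusted p under 0.05. *MRD1* (-4.88, adjusted p = 3.39e-09), AT5G11330 (-1.68, adjusted p = 1.22e-05), *RVE8* (-1.71, adjusted p = 0.00433) and AT1G72510 (-0.94, adjusted p = 0.00645) were lower in *rve8-1*, and AT3G09580 (1.16, adjusted p = 0.00297) was higher. AT5G11330 and AT1G72510 are named after their values were seen. AT5G11330 had 6.30 and 6.58 in *rve8-1* and 7.96 and 8.12 in Col at CT16.

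Over the 610 genes called at CT16, the median absolute difference was 0.38 in each of the comparisons at 4 h. Over all tested genes it was 0.18 for *rve8-1* at CT20 against Col at CT16 and 0.20 for *rve8-1* at CT16 against Col at CT12. Each comparison shares a group of arrays with that at CT16, by which the genes were called. The larger median of the called genes may thus follow in part from the calling. *CCA1* differed by -0.21 and -0.05 in these comparisons, *LHY* by -0.33 and 0.01, *TOC1* by -0.01 and 0.39, *PIF4* by 0.52 and 0.69, and *COL2* by -0.36 and -0.13, none of them called. *DIN1* differed by 1.50 with *rve8-1* at CT20 against Col at CT16 and by -0.21 with *rve8-1* at CT16 against Col at CT12. The count of 3 was 31 without *rve8-1*_92, and the count of 5 was 115 without *rve8-1*_112 and 3 without Col_84. By Euclidean distance over the 19473 genes, *rve8-1*_88 lay nearest to the Col arrays of CT8 (58.7) and then CT12 (60.5), with 63.9 to those of CT16, and *rve8-1*_112 lay nearest to those of CT8 (46.9) and CT12 (49.4), with 55.8 to CT16. Both *rve8-1* arrays were farthest from the Col arrays of CT0 and CT4, at 83.1 and 86.3 for *rve8-1*_88 and 69.2 and 67.5 for *rve8-1*_112.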

How the data were processed

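RNA of whole seedlings was hybridized to AGRONOMICS1 arrays, 1 array per harvest and genotype. The deposited values are on a log2 scale. The authors removed probes that performed badly, took TAIR9 genes as probe sets and, per the submitters' processing notes, used RMA for background correction, normalization and summary. For arrays, precision is limited by their number, here 2 per group. No further normalization was applied, and 0 columns of other samples were found. Of 30237 probe sets 29715 matched a RefSeq locus tag (TAIR10.1), which gave the names. Where a locus had several probe sets, lists used the one with the highest mean level.

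One mean per genotype and circadian time (12 groups of 2) was fitted to all 24 arrays with limma 3.58.1 in R 4.3.3 (12 residual and 3.58 prior degrees of freedom), with two-sided moderated statistics and Benjamini-Hochberg adjustment over 19473 genes. The fit was tested on simulated data. Arrays left out leave a group with 1 array, assumed to vary like the others. Figures were drawn with matplotlib 3.10.9.

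The genes named are *RVE8* and the 2 loci before it, both clock lists, the 10 largest rises and 10 largest falls, up to 6 members with the largest absolute difference of each other list, and up to 10 genes with the smallest p in each interaction. The comparison, members and lists were chosen with earlier results of these data known. Alternatives covered the filter, the variance prior, scaling, the day of free run as a block, and each array left out. Promoter sequences were not used here.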

Additional observations from a re-analysis of the deposited data

Results flagged for a closer look

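For the genes below, the difference between *rve8-1* and Col at CT16 was unlike that at a neighbouring time by the interaction term (limma, adjusted p under 0.05). Against CT12, 32 genes changed. Among the named ones, the carotenoid gene *BETA-OHASE 2* (-3.32) shifted to lower values in *rve8-1* at CT16. So did the B-box genes *COL2* (-3.02), *BBX16* (-2.90), *BBX25* (-2.05) and *BBX18* (-1.90), and the clock genes *LNK3* (-2.89), *LNK2* (-2.36), *CCA1* (-2.18) and *RVE8* (-1.97). The same held for the nuclear photosynthesis-related genes *LHCB2.3* (-2.06), *CAO* (-1.57) and *GLK2* (-1.07), and for AT1G13650 (-2.24), *ERD9* (-1.55) and AT5G66740 (-1.19). Shifts to higher values were found for *JMJD5* (1.96), *RD29A* (1.44) and *AMY3* (0.92). Their adjusted p values lay between 0.00240 and 0.0492. *LNK3*, *LNK2*, *LHCB2.3* and *CAO* were not called at CT16 itself. At CT12, *LHCB2.3* and *CAO* were higher in *rve8-1* by 1.66 and 0.94.

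Against CT20, 12 genes changed, all with higher values in *rve8-1* at CT16. They were AT3G55240 (3.73), *PIF4* (3.30), the protein kinase gene *CIPK20* (3.01), AT1G66100 (2.63), *COL5* (2.53), *PIF5* (2.04), *LNK1* (1.96), *PRR7* (1.76), *LHCB1.4* (1.72), *BBX24* (1.54), the phosphate transporter gene *PHT4;1* (1.48) and *LHCA1* (0.99). Their adjusted p values lay between 0.00140 and 0.0337. *CIPK20*, *PHT4;1*, *LNK1* and *BBX24* were not called at CT16 itself.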

How the results depend on the processing

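Of 610 genes called at CT16 (171 higher and 439 lower in *rve8-1*), the fit without the filter on low values called 255 (52 higher and 203 lower), and the fit to the 4 CT16 arrays alone called 2 (0 higher and 2 lower). With each CT16 array left out the count ranged between 61 and 746 (11 to 287 higher, 50 to 459 lower), the lowest without Col_112 and the highest without *rve8-1*_112. The other alternatives (a filter in both genotypes, a trended and robust prior, median centring, quantile normalization) gave 571 to 717. Of the 610 calls, 51 held under all of the 11 alternatives other than the 4-array fit. *rve8-1* at CT20 against Col at CT16 called 3 genes, 1 with a filter in both genotypes, which leaves out *RVE8* and *MRD1*, 6 with the replicate block, and 3 to 31 with arrays left out. *rve8-1* at CT16 against Col at CT12 called 5, 3 with that filter, and 3 to 115 with arrays left out. The 32 genes that changed between CT16 and CT12 became 18 without the filter on low values and 7 to 36 with arrays left out, and the 12 between CT16 and CT20 became 6 and 4 to 13. Leaving out the CT12 and CT20 arrays was chosen after seeing the data. With the day of free run as a replicate block, 622 genes were called at CT16, 569 of them shared with the fit without it. The days share a number and not a sample: the day 5 minus day 4 differences of *rve8-1* and Col correlated at 0.188 over 19473 genes, which are not independent. No named gene called at CT16 reversed its direction. The cause of these changes was not tested. Signal over background could not be judged beyond the summarized log2 values.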

Other observations

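Both gene groups here were assembled after their values were seen and are descriptions. Of 28 tested genes of the B-box family of zinc finger transcription factors, many of which act in light signalling, 8 fell at CT16 and 1 rose, with a median difference of -0.24, against 2.25% and 0.878% of all tested genes. Beside those described, *BBX32*, a repressor of light responses, had 4.34 and 4.45 in *rve8-1* and 6.29 and 6.52 in Col (-2.02 ± 0.18, adjusted p = 4.46e-05). *BBX16* had 4.20 and 4.61 in *rve8-1* and 5.81 and 6.56 in Col (-1.78 ± 0.28, adjusted p = 0.00318). The call of *BBX32* held with each CT16 array left out, whereas *BBX16* was lost without Col_112 (0.0819). *BBX24*, *BBX21* and *BBX22* had differences of 0.57, 0.47 and 0.51 and were not called.

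Of 8 tested genes of the anthocyanin branch, 3 fell and none rose (median difference -1.60), against 2.25% and 0.878% of all tested genes (median difference -0.04). *LDOX*, anthocyanidin synthase, had 6.40 and 5.25 in *rve8-1* and 8.13 and 7.62 in Col (-2.05 ± 0.38, adjusted p = 0.00851). *DFR*, dihydroflavonol reductase, had 8.18 and 6.60 in *rve8-1* and 9.46 and 8.91 in Col (-1.79 ± 0.42, adjusted p = 0.0304). *GSTF12*, which carries anthocyanins towards the vacuole, had 8.40 and 7.36 in *rve8-1* and 9.90 and 9.40 in Col (-1.77 ± 0.32, adjusted p = 0.00849). In each the *rve8-1* arrays differed by more than the Col arrays, with *rve8-1*_88 the higher. *LDOX*, *DFR* and *GSTF12* were also lower in *rve8-1* at CT12 (-1.64, -1.67 and -1.35) and at CT20 (-1.10, -0.95 and -0.79). For none of them was the change from either time to CT16 called. *UF3GT* (-1.61 ± 0.43) and AT4G14090 (-1.59 ± 0.47) were not called, and *MYBL2*, a repressor of the branch, had a difference of 0.91 ± 0.30 (adjusted p = 0.104). *LDOX* and *DFR* were lost without *rve8-1*_112 (0.0540 and 0.138), Col_88 (0.0804 and 0.173) and Col_112 (0.0537 and 0.119), and *GSTF12* without *rve8-1*_112 (0.0525) and Col_88 (0.0817), so that no gene of the branch was called without *rve8-1*_112 or without Col_88. Without *rve8-1*_88, *UF3GT* (0.00751) and AT4G14090 (0.0153) were called as well, beside *LDOX*, *DFR* and *GSTF12*.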
